A study of Mus musculus with 24 samples.

Results

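Ovaries of 12-month-old mice were compared with ovaries of 3-month-old mice of the natural aging series, with 3 libraries at each age, 6 of the 24 libraries of the series. The libraries were taken by their age labels and not by any measured value. All of these mice were female C57BL/6J mice without a transgene or a treatment in the labels, and the ovaries at 6, 9, 18 and 25 months that are shown beside them came from the same natural aging series, with 3 libraries at each age. Per the study, RNA of 3 mice was sequenced at each age, and a library was made from the total RNA of a homogenized whole ovary. The stage of the estrous cycle and the mating history of the mice are not given in the sources used here. ABT263, given to 2 further groups of the series, is an inhibitor of BCL-2 family proteins, and those groups entered only 1 alternative fit.

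A mouse ovary is born with a fixed pool of primordial follicles, each a quiescent oocyte wrapped in flat granulosa cells. Follicles leave the pool to grow, their granulosa cells divide and secrete anti-Mullerian hormone and inhibins, theca cells supply androgens, and after ovulation the follicle becomes a corpus luteum that takes up and makes cholesterol for progesterone. By 12 months, the pool of a laboratory mouse is known to be small and its cycles to be irregular, and macrophages, some of them fused into multinucleated giant cells that take up remnants of follicles and corpora lutea, are known to collect in the stroma of the aging ovary. Since whole ovaries were measured, fewer cells of a type and less RNA per cell cannot be told apart in any value below.

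The 6 libraries held between 18371745 and 20029940 counts, and 3 counts, taken as the lowest count read as expression, corresponded to between 0.15 and 0.163 CPM, the counts of a gene per 1000000 counts of its library. The CPM given here were scaled by the trimmed mean of M values over the 18 natural aging libraries. Mitochondrially encoded genes took between 2.3% and 2.84% of the counts. The libraries carried the markers of ovary at both ages, with the markers of granulosa cells summing to 5780.2, 6272 and 5803 CPM at 3 months and 6058, 2353 and 6734 CPM at 12 months. Markers of neighboring tissues were low but uneven. Ovgp1, the oviduct glycoprotein, was measured at 3.85, 3.91 and 35.4 CPM at 3 months and 2.59, 1.37 and 3.36 CPM at 12 months, and Cfd, the adipocyte secreted protease adipsin, at 32.04, 2.46 and 1.18 CPM at 3 months and 0.324, 0 and 0.251 CPM at 12 months. The markers of oviduct epithelium summed to between 129.7 and 174 CPM at 3 months and between 111 and 173 CPM at 12 months, those of adipocytes to between 86.9 and 217 CPM and between 132 and 167 CPM. Most of the oviduct sum came from members other than Ovgp1, and the list also holds Wt1 and Prom1. Whether these come from oviduct was not tested, so the sum is not a measure of oviduct tissue. The oviduct and adipocyte lists had median log2 fold changes of -1.65 and -0.20 over the 7 and 7 members tested. The oviduct median was -0.68 without 3-month ovary 3 and -0.47 with at least 10 counts in every library, and the adipocyte median turned positive in several settings, among them 0.10 without 12-month ovary 2. The part of these tissues in the results below was not tested.

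At 12 months, 4 genes rose and 1 fell among the 17315 tested, at an adjusted p under 0.05 in the quasi-likelihood test of edgeR. That is 0.0231% of the genes tested higher and 0.00578% lower. At an unadjusted p under 0.05, 1235 genes were higher (7.13%) and 1187 were lower (6.86%), and the values of the 3 ovaries at 12 months lay above those of the 3 ovaries at 3 months for 1670 genes (9.64%) and below them for 1906 (11.0%). The count depended on the test. DESeq2 called 434 genes higher (2.51%) and 444 lower (2.56%) among the same genes, and these included the 5 of edgeR. It also depended on 1 library: without 12-month ovary 1, edgeR called 218 genes higher (1.22%) and 135 lower (0.756%), again including the 5, while it called 1 gene without 3-month ovary 2 or 12-month ovary 2 and 0 without 3-month ovary 1, 3-month ovary 3 or 12-month ovary 3. The median log2 fold change over all genes tested was 0.02. Because so few genes passed the main test, the accounts below give the share of each gene list at an unadjusted p under 0.05, to be read against 7.13% higher and 6.86% lower over all genes, and the number called by DESeq2. For some lists they also give edgeR calls without 12-month ovary 1, the only library whose removal raised the number of calls. Leaving out any other library gave at most 1 call over all genes.

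**Figure D1:**
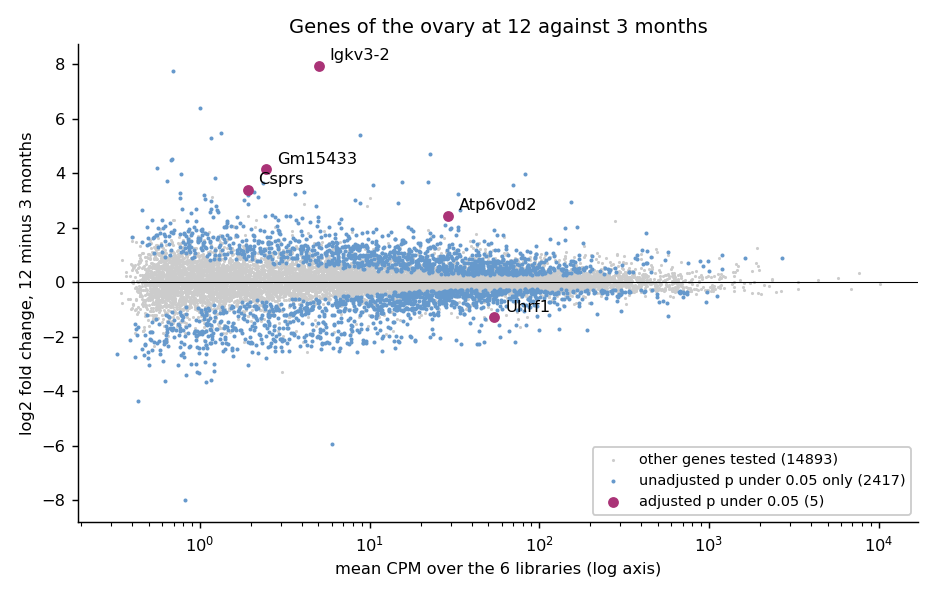
Log2 fold change of 12 minus 3 months against the mean CPM over the 6 libraries (log axis), 1 point for each of the 17315 genes tested. The 5 genes with an adjusted p under 0.05 are named, 4 above the zero line and Uhrf1 below it, and the points in blue are genes with an unadjusted p under 0.05 only.

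Uhrf1, whose protein recruits the maintenance DNA methyltransferase to newly copied DNA, was the gene that fell. It was measured at 76.3, 72.9 and 81.6 CPM at 3 months and 32.5, 30.8 and 32.1 CPM at 12 months. The 3 values at 12 months lay within a narrow range, and the groups were far apart. The log2 fold change was -1.29 (SE 0.11) and the adjusted p was 0.0299. The gene lies at chr17:56303321-56323486, plus strand (GRCm38, GENCODE M21). Leaving out 1 library at a time moved the log2 fold change between -1.34 and -1.24 and the adjusted p between 0.0186 and 0.348. Mean levels at 6, 9, 18 and 25 months were 50.4, 41.04, 23.4 and 10.3 CPM, so that 12 months stood between its neighbors.

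Atp6v0d2, a subunit of the vacuolar proton pump that is abundant in osteoclasts and multinucleated macrophages, rose. Its level was 6.89, 11.5 and 8.82 CPM at 3 months and 48.99, 58.2 and 40.6 CPM at 12 months, a log2 fold change of 2.44 (SE 0.23) with an adjusted p of 0.0383. The gene lies at chr4:19876841-19922605, minus strand. Without 1 library at a time, the adjusted p lay between 0.0186 and 0.348 and the log2 fold change between 2.28 and 2.63. The ovaries at 18 and 25 months had means of 137 and 214 CPM.

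The other 3 called genes, of which Igkv3-2 and Gm15433 fall outside the rule for named genes and are named after their values were seen, belong to repetitive families. Igkv3-2, a variable segment of the immunoglobulin kappa light chain (chr6:70698449-70699067, plus strand), had 2 counts over the 3-month libraries and 577 over the 12-month libraries, a ratio of 285 with an exact 95% interval from 78.5 to 2360.0 that covers counting error only. Its level was 0.0482, 0 and 0.0513 CPM at 3 months and 9.78, 9.41 and 10.9 CPM at 12 months, nearly even over the 12-month ovaries, and the adjusted p was 0.00735. Gm15433, a pseudogene on chromosome 1 (chr1:84963669-84964559, plus strand), was measured at 0.289, 0.268 and 0.205 CPM at 3 months and 3.83, 5.57 and 4.57 CPM at 12 months, a log2 fold change of 4.15 (SE 0.35) with an adjusted p of 0.0299. Csprs, a gene of the Sp100-related repeat that the annotation places on a scaffold outside the assembled chromosomes, was measured at 0.337, 0.375 and 0.256 CPM at 3 months and 3.29, 3.63 and 3.56 CPM at 12 months, a log2 fold change of 3.40 (SE 0.33) with an adjusted p of 0.0432. The last pair has near-identical copies around Sp100, among which reads could be split or shared, so that the counts of a single copy are uncertain. Leaving out 1 library at a time left the adjusted p of these 3 genes between 0.00953 and 0.386.

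Oocyte genes were the list with the lowest median. Of the 29 oocyte genes tested, 29 were lower at 12 months, 25 of them at an unadjusted p under 0.05 and 24 in DESeq2, and the libraries did not overlap for 25. Adjusted over all genes, 0 passed the edgeR test on all 6 libraries, and 5 did without 12-month ovary 1. The median log2 fold change was -2.01, with a range from -2.45 to -1.66 when 1 library was left out. To let a reader look at the control regions of this list, the start regions of Ooep and Ddx4 are printed. This pair had the smallest p among the members whose start regions were used here, which were not all members. The E-box (CANNTG, the site of basic helix-loop-helix factors such as those that act in oocytes) is in capitals. Each window runs 5′ to 3′ from 250 bases before to 50 bases after the RefSeq start (GRCm38.p6), at chr9:78378539-78378838, minus strand for Ooep and chr13:112652261-112652560, minus strand for Ddx4.
Ooep: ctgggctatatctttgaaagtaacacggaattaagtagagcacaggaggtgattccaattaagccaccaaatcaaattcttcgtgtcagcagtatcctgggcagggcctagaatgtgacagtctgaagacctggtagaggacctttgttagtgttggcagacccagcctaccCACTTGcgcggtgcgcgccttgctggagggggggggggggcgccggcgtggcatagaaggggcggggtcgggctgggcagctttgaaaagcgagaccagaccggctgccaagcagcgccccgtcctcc
Ddx4: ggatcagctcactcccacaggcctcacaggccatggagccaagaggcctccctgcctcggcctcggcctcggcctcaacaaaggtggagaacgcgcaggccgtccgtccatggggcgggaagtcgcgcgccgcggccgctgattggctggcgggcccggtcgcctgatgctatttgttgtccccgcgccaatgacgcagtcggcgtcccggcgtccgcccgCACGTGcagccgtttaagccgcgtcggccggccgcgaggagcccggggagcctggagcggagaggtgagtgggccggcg
Each window holds 1 E-box, 78 bases before the start of Ooep and 29 bases before that of Ddx4. An E-box was found in 18 of the 20 oocyte genes with a window (90.0%) and in 75.0% of all 27025 genes with one, so the motif is common everywhere. It is a description of the letters and was not tested as a site.

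Ooep, a subunit of the maternal complex under the oocyte membrane, was measured at 27.4, 26.97 and 19.5 CPM at 3 months and 11.5, 6.10 and 8.23 CPM at 12 months, a log2 fold change of -1.53 (SE 0.27) with an adjusted p of 0.126. Ddx4, the germ cell helicase, was measured at 4.10, 5.57 and 5.43 CPM at 3 months and 1.94, 1.68 and 1.05 CPM at 12 months, a log2 fold change of -1.70 (SE 0.32) with an adjusted p of 0.129. Neither pair of groups overlapped. The growth factor Gdf9, through which the oocyte directs its granulosa cells, was at 100.03, 104 and 79.3 CPM at 3 months and 32.4, 10.3 and 27.8 CPM at 12 months and its partner Bmp15 at 44.5, 39.7 and 25.1 CPM at 3 months and 13.7, 2.58 and 11.1 CPM at 12 months. Among the coat proteins of the egg, Zp1 was at 25.5, 36.5 and 28.9 CPM at 3 months and 9.29, 2.68 and 8.98 CPM at 12 months and Zp3 at 52.2, 66.1 and 52.2 CPM at 3 months and 18.1, 2.68 and 14.8 CPM at 12 months. In each of these genes except Ddx4, 12-month ovary 2 had the lowest value. The transcription factors of the primordial follicle were low throughout, with Nobox at 13.3, 13.8 and 10.8 CPM at 3 months and 3.9966, 0.789 and 3.06 CPM at 12 months and Figla at 1.64, 1.55 and 0.820 CPM at 3 months and 0.270, 0.0526 and 0.301 CPM at 12 months. In 12-month ovary 2, Figla lay under the level of 3 counts. The 4 members with an unadjusted p of 0.05 or more, Khdc3, Kit, Taf4b and Uchl1, had log2 fold changes of -1.09, -0.71, -0.61 and -0.37, and at least Kit and Uchl1 are also expressed outside oocytes.

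The granulosa cell list did not move as one. Of 23 tested genes, 4 were lower and 1 was higher at an unadjusted p under 0.05, and the median of -0.25 changed sign to 0.068 without 12-month ovary 2. Amh, the hormone of growing preantral and small antral follicles, was measured at 379, 276 and 228 CPM at 3 months and 112, 41.02 and 115 CPM at 12 months, a log2 fold change of -1.74 (SE 0.40) with an adjusted p of 0.143 in edgeR and 0.00064 in DESeq2. Slc18a2 was at 261, 209.7 and 129.8 CPM at 3 months and 87.5, 27.8 and 67.5 CPM at 12 months, Serpine2, a protease inhibitor, at 697, 664 and 540.4 CPM at 3 months and 451, 310.3 and 387 CPM at 12 months, and the receptor of follicle-stimulating hormone, Fshr, at 29.1, 31.5 and 22.3 CPM at 3 months and 16.1, 12.6 and 19.2 CPM at 12 months. These 4 genes did not overlap between the ages and were the ones that DESeq2 called. The inhibin alpha subunit Inha, made by the same cells in larger follicles, was at 1332, 2084 and 1861 CPM at 3 months and 1859, 562 and 2758 CPM at 12 months, and the estrogen-making aromatase Cyp19a1 at 16.5, 47.8 and 6.71 CPM at 3 months and 30.7, 3.47 and 160.5 CPM at 12 months. For this pair, 12-month ovary 2 was below and 12-month ovary 3 above each 3-month ovary.

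Of 36 tested growth factor and hormone signals of the follicle, 2 were higher and 5 lower at an unadjusted p under 0.05. Their median was -0.25, or -0.14 without 12-month ovary 2. This list shares genes with the granulosa and oocyte lists above, among them Amh, Fshr, Inha, Gdf9 and Bmp15, so its counts are not of additional genes only. Igfbp5, which binds insulin-like growth factors, was at 304, 461 and 429 CPM at 3 months and 493, 760.0 and 872 CPM at 12 months and was called by DESeq2, with an adjusted p of 0.0383. Its relative Igfbp4 was at 218, 261 and 259 CPM at 3 months and 271, 1038 and 371 CPM at 12 months, with 12-month ovary 2 far above the rest. Esr2, the estrogen receptor of granulosa cells, was at 174, 122 and 114 CPM at 3 months and 123, 13.2 and 37.03 CPM at 12 months, with 2 of the 12-month values below each 3-month value and 1 within their range. The theca marker Hpgd, which breaks down prostaglandins, was at 82.1, 71.8 and 51.7 CPM at 3 months and 40.2, 12.9 and 27.6 CPM at 12 months, a log2 fold change of -1.36 (SE 0.38) with an adjusted p of 0.186. The list of theca and steroid-making interstitial cells had a median of -0.046, which changed sign without 12-month ovary 2.

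Luteal and steroid genes differed widely between ovaries of 1 age. The 17 markers of the corpus luteum all had a positive fold change, with a median of 0.55 that was 0.056 without 12-month ovary 1, but Cyp11b1 alone reached an unadjusted p under 0.05, and DESeq2 called 0. Star, which carries cholesterol into the mitochondrion for steroid synthesis, was at 1415, 372 and 1583 CPM at 3 months and 6064, 1612 and 515 CPM at 12 months. The luteinizing hormone receptor Lhcgr was at 507, 133 and 628 CPM at 3 months and 1079, 111 and 573 CPM at 12 months, with the second ovary lowest at either age. The 25 genes of cholesterol synthesis and uptake likewise all had a positive fold change, with a median of 0.76, but 0 reached an unadjusted p under 0.05 in edgeR and DESeq2 called 0. That median was -0.41 without 12-month ovary 1. The median of the steroid enzymes was 0.13 and changed sign without the same ovary, to -0.081.

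**Figure D2:**
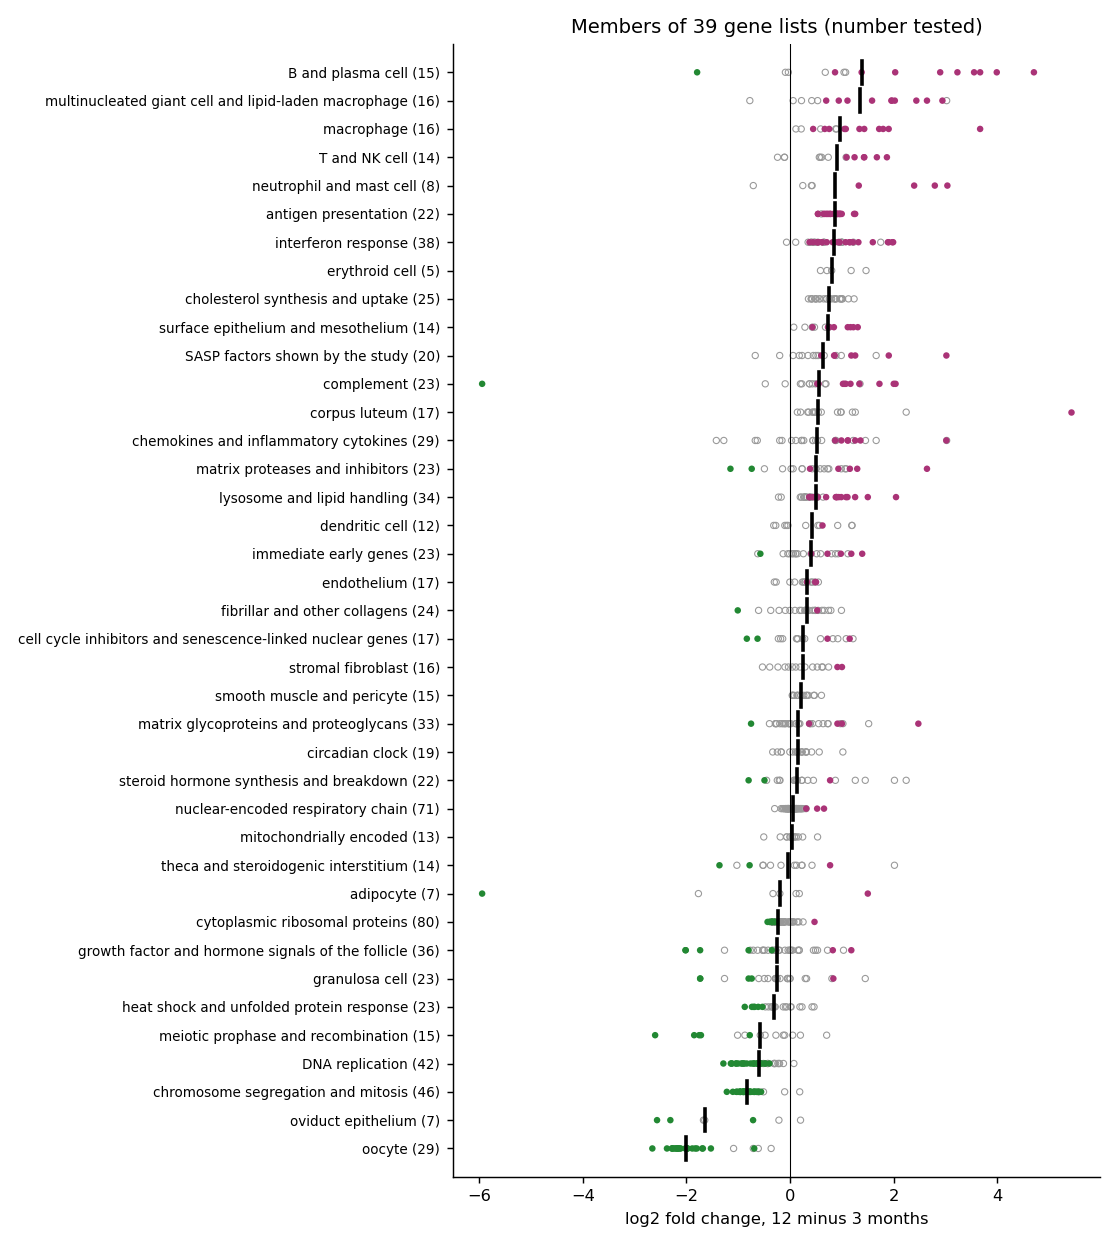
Log2 fold changes of 12 minus 3 months for the tested members of 39 gene lists, 1 point per gene, with the median of each list as a black bar and the lists ordered by it. Filled points had an unadjusted p under 0.05 (purple higher, green lower at 12 months). The medians of the oocyte, mitosis and replication lists lie left of zero, and those of the macrophage, plasma cell and antigen presentation lists lie right of it.

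Genes of dividing cells were lower at 12 months with little spread. Of the 46 genes of chromosome segregation and mitosis, 42 were lower at an unadjusted p under 0.05, 43 did not overlap between the ages, and DESeq2 called 40 lower and 0 higher. The median log2 fold change was -0.84, from -0.94 to -0.71 when 1 library was left out. In edgeR, 0 passed on all 6 libraries and 5 did without 12-month ovary 1. The start regions of Plk1 and Bub1b, the pair with the smallest p among the members whose start regions were used here, are printed. The CHR motif (TTTGAA) and the CCAAT motif (CCAAT) are known features of promoters of late cell cycle genes. The motifs are in capitals on either strand, and the windows lie at chr7:122159185-122159484, plus strand for Plk1 and chr2:118597961-118598260, plus strand for Bub1b (RefSeq, GRCm38.p6).
Plk1: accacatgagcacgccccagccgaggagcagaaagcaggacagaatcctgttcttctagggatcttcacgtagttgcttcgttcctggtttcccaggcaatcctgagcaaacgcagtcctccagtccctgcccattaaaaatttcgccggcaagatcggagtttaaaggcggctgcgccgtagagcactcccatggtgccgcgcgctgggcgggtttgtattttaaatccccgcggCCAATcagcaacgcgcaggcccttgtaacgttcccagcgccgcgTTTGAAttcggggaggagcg
Bub1b: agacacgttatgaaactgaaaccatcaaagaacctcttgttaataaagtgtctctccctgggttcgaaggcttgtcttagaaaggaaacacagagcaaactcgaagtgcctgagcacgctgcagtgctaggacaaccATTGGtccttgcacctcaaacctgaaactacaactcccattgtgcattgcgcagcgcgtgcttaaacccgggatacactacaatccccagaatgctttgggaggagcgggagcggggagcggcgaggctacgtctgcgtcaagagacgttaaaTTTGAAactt
In Plk1 the CCAAT motif began 14 bases before the start and the CHR motif 30 bases after it. In Bub1b a CCAAT motif on the minus strand began 113 bases before the start, and the CHR motif 40 bases after it. Of the 40 genes of the list with a window, 30 held a CHR motif (75.0%) and 32 a CCAAT motif (80.0%), against 20.2% and 41.1% of all 27025 genes. These shares describe letters in windows and were not tested against expression.

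Plk1, the kinase that drives entry into and passage through mitosis, was at 30.2, 33.8 and 34.5 CPM at 3 months and 18.5, 17.4 and 15.7 CPM at 12 months, a log2 fold change of -0.95 (SE 0.13) with an adjusted p of 0.109. Bub1b, a spindle checkpoint kinase, was at 66.5, 56.5 and 58.6 CPM at 3 months and 33.8, 35.2 and 29.7 CPM at 12 months, a log2 fold change of -0.89 (SE 0.13) with an adjusted p of 0.125. Birc5, or survivin, was at 38.9, 28.8 and 35.6 CPM at 3 months and 15.1, 15.5 and 17.8 CPM at 12 months, and cyclin B1, Ccnb1, at 44.8, 42.9 and 35.6 CPM at 3 months and 20.3, 24.1 and 22.03 CPM at 12 months. The 3-month values lay above all 12-month values in each of these 4 genes. The members that did not pass an unadjusted p of 0.05 were Bub3, Cenpf, Hmmr and Pttg1, with log2 fold changes of -0.11, -0.51, -0.61 and 0.19. Aspm, of the spindle pole, and Stmn1, which destabilizes microtubules, stood among the genes with the smallest p outside the list, at 38.98, 34.3 and 32.03 CPM at 3 months and 18.5, 14.8 and 12.6 CPM at 12 months and at 199.9, 149 and 174 CPM at 3 months and 91.00, 89.5 and 83.5 CPM at 12 months.

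Of the 42 genes of DNA replication, 29 were lower at an unadjusted p under 0.05, 33 did not overlap, and DESeq2 called 16 lower, Uhrf1 among them. The median was -0.61. The helicase subunits Mcm6 and Mcm5 were at 136, 106 and 104 CPM at 3 months and 60.7, 62.8 and 60.2 CPM at 12 months and at 64.7, 50.9 and 62.9 CPM at 3 months and 28.9, 34.2 and 30.9 CPM at 12 months. Cdc45, which joins them at the fork, was at 18.3, 14.8 and 16.2 CPM at 3 months and 5.78, 8.10 and 8.63 CPM at 12 months, a log2 fold change of -1.14 (SE 0.22) with an adjusted p of 0.129. The sliding clamp Pcna, which also acts in repair, had a log2 fold change of -0.22 and did not pass. For the genes of meiotic prophase, 15 of 28 could be tested, 5 were lower at an unadjusted p under 0.05, and the leading member Mael, a germ cell gene of piRNA silencing, was at 1.64, 1.12 and 2.36 CPM at 3 months and 0.378, 0.105 and 0.351 CPM at 12 months.

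**Figure D3:**
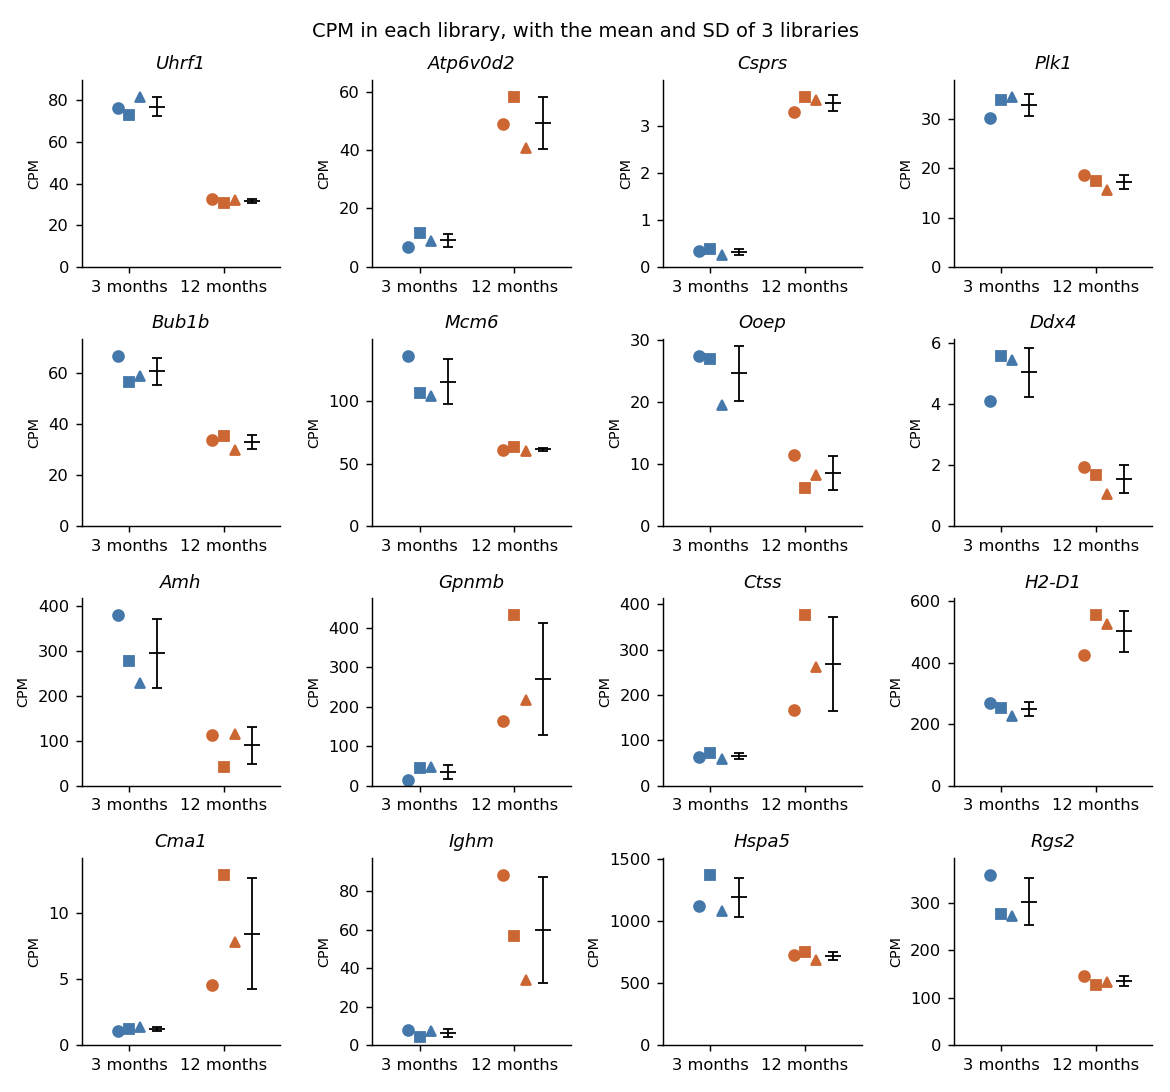
CPM of 16 genes in each library, with replicate 1 as a circle, 2 as a square and 3 as a triangle, blue for 3 months and orange for 12 months, and the mean with its SD over 3 libraries as a black bar. The groups do not overlap in any panel, and the 12-month values are tight for Uhrf1 and Mcm6 and wide for Gpnmb, Ctss and Cma1.

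Other genes named by the smallest p among those lower at 12 months were Rgs2, Mtmr14, Asb4, Rhpn2, Trim71, Lypd3 and AU016765. Rgs2, which dampens signaling of Gq-coupled receptors, was at 360.0, 276 and 272 CPM at 3 months and 147, 127 and 134 CPM at 12 months, a log2 fold change of -1.17 (SE 0.16) with an adjusted p of 0.105. Mtmr14, a phosphoinositide phosphatase, was at 60.6, 67.7 and 63.1 CPM at 3 months and 38.02, 34.7 and 36.98 CPM at 12 months, and Trim71, an RNA-binding ubiquitin ligase of early development, at 3.52, 3.64 and 3.23 CPM at 3 months and 0.594, 0.473 and 0.702 CPM at 12 months. The 12-month values of each were close together. The log2 fold changes of Asb4 and Rhpn2 were -1.77 and -1.46. AU016765 and Lypd3 were near 2 CPM at 3 months and near or under the level of 3 counts at 12 months, with values of 0.162, 0.105 and 0.201 and 0.162, 0.158 and 0.201 CPM.

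Macrophage genes were higher at 12 months. Of the 16 tested macrophage markers, 16 had a positive fold change, 11 at an unadjusted p under 0.05, and DESeq2 called 8. The median was 0.97 and stayed between 0.71 and 1.29 when 1 library was left out, and edgeR called 9 without 12-month ovary 1. Cd5l, a scavenger protein of resident macrophages, was at 1.20, 2.14 and 3.38 CPM at 3 months and 19.7, 39.3 and 27.05 CPM at 12 months, a log2 fold change of 3.67 (SE 0.43) with an adjusted p of 0.0691. Clec7a, the receptor for fungal glucans, was at 11.3, 17.4 and 13.1 CPM at 3 months and 30.8, 54.7 and 71.8 CPM at 12 months, and the lysozyme Lyz2 at 157, 160.1 and 251 CPM at 3 months and 341, 1056 and 584 CPM at 12 months. The groups did not overlap, and 12-month ovary 1 had the lowest of the 12-month values in these 3 genes. The tissue-resident marker Cd163 had a log2 fold change of 0.11. Cd163l1, which is not in the macrophage list and is not read as a macrophage marker here, was named by its small p. It was at 0.819, 0.589 and 0.666 CPM at 3 months and 4.70, 9.26 and 5.77 CPM at 12 months.

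The list for multinucleated giant cells and lipid-laden macrophages, which holds Atp6v0d2, had a median of 1.35 that was 0.78 without 12-month ovary 2, and 10 of its 16 tested members were higher at an unadjusted p under 0.05 while 0 were lower. DESeq2 called 8. The glycoprotein Gpnmb was at 14.9, 44.6 and 46.3 CPM at 3 months and 163, 432 and 218 CPM at 12 months, a log2 fold change of 2.94 (SE 0.52) with an adjusted p of 0.126. Acp5, the tartrate-resistant acid phosphatase by which osteoclasts are stained, was at 7.32, 7.17 and 6.97 CPM at 3 months and 16.2, 39.2 and 28.5 CPM at 12 months, and the lipid-binding protein Fabp5 at 68.8, 62.5 and 61.6 CPM at 3 months and 143, 132 and 97.8 CPM at 12 months. Trem2, the lipid receptor of macrophages, was at 8.43, 15.7 and 12.2 CPM at 3 months and 22.5, 76.6 and 43.3 CPM at 12 months. The fusion proteins themselves were scarce. Dcstamp was at 0, 0.0535 and 0.0513 CPM at 3 months and 0.0540, 0.105 and 0.301 CPM at 12 months and Ocstamp at 0, 0.0535 and 0.154 CPM at 3 months and 0.108, 0.578 and 0.753 CPM at 12 months, and neither passed the filter on low counts.

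Among 34 genes of the lysosome and of lipid handling, 17 were higher at an unadjusted p under 0.05 and 0 were lower, with a median of 0.50 that was 0.32 without 12-month ovary 2. Cathepsin S, Ctss, a protease of antigen-presenting cells, was at 63.9, 71.5 and 58.2 CPM at 3 months and 167, 376 and 261 CPM at 12 months, a log2 fold change of 2.04 (SE 0.29) with an adjusted p of 0.109. The cholesterol exporter Abcg1 was at 14.4, 21.4 and 20.5 CPM at 3 months and 27.8, 52.1 and 39.7 CPM at 12 months and the apolipoprotein Apoc1 at 3.04, 2.73 and 3.33 CPM at 3 months and 6.86, 7.05 and 8.03 CPM at 12 months. Cathepsin L, Ctsl, which other cells of the ovary express too, had a log2 fold change of -0.17 and did not pass. Fcgr2b, the inhibitory receptor for IgG on macrophages and B cells, was at 31.7, 35.00 and 33.2 CPM at 3 months and 66.6, 80.5 and 83.2 CPM at 12 months, a log2 fold change of 1.19 (SE 0.13) with an adjusted p of 0.0648, and the phospholipase Pla2g2d was at 2.02, 2.35 and 2.31 CPM at 3 months and 8.32, 8.73 and 10.8 CPM at 12 months.

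Genes of lymphocytes and plasma cells were mostly higher, those of T and NK cells at a low level. The markers of T and NK cells summed to 23.5, 16.6 and 18.5 CPM at 3 months and 30.7, 43.5 and 47.4 CPM at 12 months, and 6 of 14 tested members were higher and 0 lower at an unadjusted p under 0.05, with a median of 0.91. Of 15 B and plasma cell genes tested, 9 were higher and 1 was lower, with a median of 1.38 that was 0.89 without 12-month ovary 3, and 4 were called higher by DESeq2. This list summed to 302, 324 and 236 CPM at 3 months and 392, 501 and 1076 CPM at 12 months, of which Xbp1, a factor of secretion that many cells use, made up 155, 233 and 144 CPM at 3 months and 159.9, 197 and 144 CPM at 12 months. Cd4 was at 3.32, 2.30 and 1.69 CPM at 3 months and 5.29, 9.57 and 8.78 CPM at 12 months and the T cell kinase Zap70 at 1.88, 1.77 and 1.44 CPM at 3 months and 3.94, 9.57 and 5.22 CPM at 12 months, while the cytotoxic markers Gzmb and Ncr1 had log2 fold changes of -0.24 and -0.11. Immunoglobulin genes took between 0.0023% and 0.0089% of the counts at 3 months and between 0.0218% and 0.107% at 12 months. Ighm, the heavy chain of IgM, was at 7.71, 4.12 and 7.02 CPM at 3 months and 88.6, 56.9 and 33.9 CPM at 12 months, a log2 fold change of 3.23 (SE 0.40) with an adjusted p of 0.0749. Igkc, the kappa constant region, was at 20.7, 3.21 and 4.87 CPM at 3 months and 69.2, 102 and 295 CPM at 12 months, and the joining chain Jchain at 5.69, 1.23 and 2.61 CPM at 3 months and 11.7, 14.3 and 97.9 CPM at 12 months. 12-month ovary 3 was the highest for Igkc and Jchain and the lowest for Ighm. Derl3, a chaperone partner of secretory cells kept in the list, went the other way, at 73.5, 69.6 and 61.7 CPM at 3 months and 33.1, 14.6 and 11.99 CPM at 12 months, a log2 fold change of -1.79 (SE 0.36) with an adjusted p of 0.129. The B cell marker Ms4a1 was at 1.64, 1.12 and 0.205 CPM at 3 months and 1.89, 0.210 and 0.853 CPM at 12 months, overlapping between the ages.

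Some mast cell proteases were higher from a very low level. The chymase Cma1 was at 1.06, 1.23 and 1.33 CPM at 3 months and 4.59, 12.9 and 7.83 CPM at 12 months, a log2 fold change of 2.79 (SE 0.42) with an adjusted p of 0.126. The tryptase Tpsb2 was at 1.64, 1.12 and 2.51 CPM at 3 months and 6.54, 24.9 and 12.3 CPM at 12 months and the carboxypeptidase Cpa3 at 0.819, 1.66 and 2.26 CPM at 3 months and 4.43, 12.3 and 8.28 CPM at 12 months. In all 3, ovary 2 was the highest and ovary 1 the lowest at 12 months. S100a8 and S100a9, the abundant neutrophil proteins, were at 1.16, 0.375 and 0.359 CPM at 3 months and 0.432, 1.05 and 1.10 CPM at 12 months and at 1.73, 0.268 and 0.103 CPM at 3 months and 0.270, 0.578 and 1.71 CPM at 12 months, and Ly6g had 0 counts in the 6 libraries. Over the whole list, 4 of 8 tested genes of neutrophils and mast cells were higher and 0 lower at an unadjusted p under 0.05, with a median of 0.88, from 0.72 to 1.68 when 1 library was left out.

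Nearly the whole list of antigen presentation genes was higher at 12 months. All 22 had a positive fold change, 21 at an unadjusted p under 0.05, the exception being the transporter subunit Tap2 at 0.60, and 19 did not overlap between the ages. DESeq2 called 11 and edgeR called 7 without 12-month ovary 1. The median was 0.86, between 0.66 and 0.96 when 1 library was left out. H2-D1, a class I heavy chain, was at 271, 252 and 226 CPM at 3 months and 427, 554 and 526 CPM at 12 months, a log2 fold change of 1.00 (SE 0.16) with an adjusted p of 0.126. Its relative H2-K1 was at 347, 303 and 316 CPM at 3 months and 467, 562 and 549 CPM at 12 months, and the immunoproteasome subunits Psmb8 and Psmb9, which cut peptides for class I, at 14.3, 13.97 and 10.7 CPM at 3 months and 21.6, 33.2 and 39.1 CPM at 12 months and at 12.9, 10.6 and 9.79 CPM at 3 months and 17.8, 19.983 and 25.9 CPM at 12 months. Class I genes are similar in sequence to each other, so that the counting could split reads between them. The start region of H2-D1 at chr17:35262844-35263143, plus strand (RefSeq, GRCm38.p6) is printed because interferon regulatory factors are known to act on class I promoters. The capitals mark a match to GAANNGAAA, a spelling of their core site, on the minus strand.
H2-D1: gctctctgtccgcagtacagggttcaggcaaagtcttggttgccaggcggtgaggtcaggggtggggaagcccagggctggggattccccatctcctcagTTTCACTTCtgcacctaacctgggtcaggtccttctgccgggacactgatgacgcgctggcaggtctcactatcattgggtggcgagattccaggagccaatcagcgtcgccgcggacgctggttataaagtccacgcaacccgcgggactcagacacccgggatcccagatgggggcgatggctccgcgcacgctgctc
The match began 150 bases before the start. The window of Psmb8, taken by the same rule, held no match and is not printed. Of the 17 genes of the list with a window, 5 held the motif (29.4%), against 8.68% of all genes with one. The spelling was chosen after a longer one, GAAANNGAAA, had matched 2 of the 17 (11.8%, against 3.99% of all genes).

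Interferon-stimulated genes were higher with more unevenness. Of 38 tested, 22 were higher at an unadjusted p under 0.05 and 0 were lower, and DESeq2 called 6. The median was 0.85 and was 0.40 without 12-month ovary 3. Rsad2, or viperin, was at 5.78, 3.64 and 3.69 CPM at 3 months and 10.4, 9.15 and 32.6 CPM at 12 months, and the transcription factor Stat2, which carries the signal of type I interferon, at 59.03, 61.2 and 59.4 CPM at 3 months and 95.8, 72.6 and 110.4 CPM at 12 months. Gbp2, a guanylate-binding protein, was at 42.4, 34.6 and 31.9 CPM at 3 months and 46.2, 119 and 109 CPM at 12 months and Irf1 at 46.5, 56.1 and 48.3 CPM at 3 months and 68.1, 67.00 and 83.3 CPM at 12 months. The groups did not overlap in these 4 genes.

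Of 23 complement genes, 11 were higher and 1, the adipocyte gene Cfd, was lower at an unadjusted p under 0.05, with a median of 0.55. Itgb2, the beta chain of the complement receptors on leukocytes, was at 9.64, 18.4 and 10.97 CPM at 3 months and 32.5, 71.2 and 56.9 CPM at 12 months, a log2 fold change of 2.04 (SE 0.35) with an adjusted p of 0.126. C1qc, made by macrophages, was at 49.4, 58.1 and 55.2 CPM at 3 months and 72.7, 194 and 147 CPM at 12 months and C4b at 37.3, 27.5 and 19.6 CPM at 3 months and 50.2, 151 and 79.9 CPM at 12 months. Among 29 chemokines and cytokines, 7 were higher at an unadjusted p under 0.05 and 0 were lower, and the median of 0.53 was 0.17 without 12-month ovary 2. Ltb, a lymphotoxin subunit of lymphocytes, was at 1.93, 2.03 and 1.59 CPM at 3 months and 3.89, 5.31 and 5.17 CPM at 12 months, and Cxcl16, made by macrophages, at 16.9, 22.3 and 13.6 CPM at 3 months and 24.4, 38.9 and 33.8 CPM at 12 months. 

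The senescence-associated secretory phenotype (SASP) is the set of factors that senescent cells are known to release. The list of 21 such factors that the study displays was chosen on these samples and is not independent evidence of a direction. Of the 20 tested, 7 were higher and 0 lower at an unadjusted p under 0.05, 0 passed adjustment in edgeR, DESeq2 called 3, and the median was 0.63. Fgf2, a growth factor of fibroblasts, was at 19.4, 22.5 and 18.4 CPM at 3 months and 27.4, 47.4 and 35.3 CPM at 12 months, and Cxcl10, an interferon-induced chemokine, at 2.31, 2.46 and 2.87 CPM at 3 months and 8.91, 3.94 and 5.62 CPM at 12 months. Il1b was at 0.241, 0.803 and 0.154 CPM at 3 months and 0.864, 1.42 and 7.48 CPM at 12 months, with 12-month ovary 3 alone above 2 CPM. These 3 were the ones that DESeq2 called, with adjusted p of 0.0162, 0.0255 and 0.0246. Tnfrsf1b and Igfbp4 did not overlap either and had log2 fold changes of 0.60 and 1.18. Pdgfa was at 19.997, 28.04 and 20.5 CPM at 3 months and 25.2, 175 and 56.9 CPM at 12 months and Icam1 at 13.4, 16.2 and 12.5 CPM at 3 months and 15.4, 33.97 and 26.9 CPM at 12 months, each with an unadjusted p under 0.05 and overlapping values.

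The other factors of the list did not pass. Il1a, Timp1, Ccl8, Plaur, Axl, Timp2, Tnfrsf1a, Tnfrsf18, Igfbp3 and Kitl had positive log2 fold changes between 0.18 and 1.66. Timp1, an inhibitor of matrix proteases, was at 33.7, 133 and 49.9 CPM at 3 months and 48.01, 311 and 69.6 CPM at 12 months, with the second ovary highest at either age, and its fold change turned negative without 12-month ovary 2. Mmp9, Ccl2 and Ccl3 had log2 fold changes of 0.059, -0.67 and -0.20. The sign turned for Ccl2 without 3-month ovary 2, for Ccl3 without that ovary or 12-month ovary 3, and for Mmp9 without 3-month ovary 1 or 2 or 12-month ovary 2. Mmp3 was at 0, 0.428 and 0.103 CPM at 3 months and 0.0540, 3.05 and 0 CPM at 12 months and was filtered out.

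Among cell cycle inhibitors and nuclear genes linked to senescence, Hmgb2 and Lmnb1, whose loss marks senescent cells in culture, were at 121, 94.2 and 103 CPM at 3 months and 54.7, 63.4 and 62.02 CPM at 12 months and at 110.4, 89.4 and 113 CPM at 3 months and 70.2, 64.8 and 69.5 CPM at 12 months. Their log2 fold changes were -0.83 (SE 0.14) and -0.63 (SE 0.13), with adjusted p of 0.126 and 0.138 in edgeR and of 0.00028 and 0.00687 in DESeq2. Both are also known to be high in dividing cells, and the mitosis genes above were lower in the same libraries. The part of dividing cells in these values was not tested. Cdkn1c, an inhibitor of the cell cycle that is imprinted, was at 9.49, 9.47 and 6.36 CPM at 3 months and 15.4, 16.5 and 24.8 CPM at 12 months, a log2 fold change of 1.15 (SE 0.26) with an adjusted p of 0.143. Cdkn1a, which encodes p21, was at 12.8, 53.5 and 14.5 CPM at 3 months and 15.2, 125 and 46.3 CPM at 12 months and Cdkn2a, which encodes p16 and ARF, at 0.530, 2.30 and 0.513 CPM at 3 months and 0.972, 3.63 and 1.30 CPM at 12 months. In both, the second ovary was the highest at either age and the groups overlapped. The median of the 17 members was 0.24 and fell to -0.019 without 12-month ovary 2.

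The surface epithelium list was higher at 12 months. All 14 members had a positive fold change, 8 at an unadjusted p under 0.05, DESeq2 called 5, and the median was 0.74, or 0.40 without 12-month ovary 2. Upk1b, a uroplakin of the mesothelial covering, was at 26.6, 26.2 and 25.2 CPM at 3 months and 48.8, 73.4 and 54.2 CPM at 12 months, a log2 fold change of 1.17 (SE 0.18) with an adjusted p of 0.125. Muc16, the mucin that carries CA125, was at 9.01, 7.44 and 8.82 CPM at 3 months and 13.9, 17.1 and 14.8 CPM at 12 months, and Lrrn4 at 4.72, 5.40 and 4.97 CPM at 3 months and 9.83, 18.5 and 9.28 CPM at 12 months. The keratin Krt8 stood at 44.2, 41.3 and 47.5 CPM at 3 months and 51.6, 49.6 and 39.7 CPM at 12 months , overlapping between the ages. Endothelial genes had a median of 0.33, or 0.15 without 12-month ovary 1, and 3 of 17 were higher at an unadjusted p under 0.05, among them Robo4 at 26.8, 33.9 and 34.3 CPM at 3 months and 51.1, 42.6 and 41.7 CPM at 12 months.

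The stroma gave no common direction that held. The stromal fibroblast list had a median of 0.24, the smooth muscle list of 0.21 and the collagens of 0.32, and each changed sign without 12-month ovary 2, to -0.057, -0.22 and -0.024. Within them, the small proteoglycans Dcn and Lum, which bind collagen fibrils, were at 268, 327 and 355 CPM at 3 months and 344, 727 and 731 CPM at 12 months and at 112, 122 and 107 CPM at 3 months and 127, 306 and 254 CPM at 12 months, and DESeq2 called both, with adjusted p of 0.0461 and 0.0285. Col6a3 was at 185, 244 and 255 CPM at 3 months and 258, 355 and 377 CPM at 12 months and Col11a1, a minor fibrillar collagen, at 114, 99.7 and 82.5 CPM at 3 months and 87.3, 33.9 and 27.4 CPM at 12 months, in opposite directions. Mmp12, the elastase of macrophages, was at 5.20, 19.6 and 3.33 CPM at 3 months and 47.3, 79.2 and 49.1 CPM at 12 months, a log2 fold change of 2.64 (SE 0.63) with an adjusted p of 0.151. Of 33 matrix glycoproteins and proteoglycans, 4 were higher and 1 was lower at an unadjusted p under 0.05, and of 23 matrix proteases and inhibitors 5 and 2 were, with medians of 0.16 and 0.50 that were 0.044 and 0.11 without 12-month ovary 2. Hapln1, which links hyaluronan to proteoglycans, was at 0.771, 1.02 and 0.615 CPM at 3 months and 3.67, 1.89 and 7.98 CPM at 12 months, and Thbs1 at 779, 663 and 677 CPM at 3 months and 597, 331 and 342 CPM at 12 months.

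Some chaperones were lower. Of 23 heat shock and unfolded protein response genes, 6 were lower and 0 higher at an unadjusted p under 0.05, and DESeq2 called the same number lower. Hspa5, or BiP, was at 1125, 1374 and 1084 CPM at 3 months and 726, 752 and 688 CPM at 12 months, a log2 fold change of -0.74 (SE 0.15) with an adjusted p of 0.129. Hsp90b1 and Manf, of the same compartment, the endoplasmic reticulum, were at 871, 887 and 744 CPM at 3 months and 592, 595 and 554 CPM at 12 months and at 145, 196 and 167 CPM at 3 months and 112, 104 and 118 CPM at 12 months. Hsph1 and Hsp90aa1 of the cytosol and Creld2 were the others of the 6, with log2 fold changes of -0.88, -0.68 and -0.70. The inducible Hspa1a and Hspa1b of the cytosol had log2 fold changes of 0.42 and 0.46 and did not pass.

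Ribosomal protein genes shifted little but together. Of 80, 72 had a negative fold change, and without overlap 51 lay below and 2 above at 12 months. The median was -0.24, while 10 were lower and 1 higher at an unadjusted p under 0.05 and DESeq2 called 0. Against 9 months the direction was the opposite, with a median of 0.23 and 78 positive and 2 negative fold changes at 12 months. Short ribosomal genes share reads with processed pseudogenes, which leaves single members uncertain. The respiratory chain list had a median of 0.054, the mitochondrially encoded genes of 0.039 and the clock genes of 0.16, with 3, 0 and 0 members higher and 0 lower at an unadjusted p under 0.05. Of 23 immediate early genes, which respond to handling as well as to hormones, 5 were higher and 1 lower at that threshold, and the median of 0.40 was 0.15 without 12-month ovary 2. Klf4 was at 10.6, 12.1 and 11.3 CPM at 3 months and 17.6, 27.03 and 22.8 CPM at 12 months and Myc at 92.7, 133 and 116 CPM at 3 months and 63.9, 82.8 and 84.2 CPM at 12 months. Of 12 dendritic cell genes, 7 had a positive and 5 a negative fold change, and 1 was higher at an unadjusted p under 0.05. Their median was 0.42, or 0.26 without 12-month ovary 2. Their sums overlapped, at 309, 273 and 334 CPM at 3 months and 346, 288 and 331 CPM at 12 months. Zbtb46 was at 41.9, 39.1 and 37.7 CPM at 3 months and 54.9, 62.4 and 65.3 CPM at 12 months. Erythroid genes had a median of 0.80, which was -0.57 without 12-month ovary 1. In that ovary hemoglobin Hbb-bs stood at 217 CPM, against 31.8 and 35.1 CPM in the other ovaries of that age.

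The spread within the 12-month group was the widest of the 6 ages by the biological coefficient of variation, fitted in each group alone. Each fit used only the genes tested in 12 against 3 months. Genes expressed mainly at other ages were thus left out, and the order of the ages holds for the genes used. The coefficient was 0.325 at 12 months against 0.219 at 3 months, and 0.162, 0.267, 0.276 and 0.307 at 6, 9, 18 and 25 months. The SD of log2 CPM over 3 libraries had a median of 0.263 at 12 months and 0.218 at 3 months, and was larger at 12 months for 60.4% of genes. An SD above 1 was found for 1221 genes at 12 months and 537 at 3 months. By these measures 25 months was nearly as wide as 12 months, with a median SD of 0.262 and an SD above 1 for 1175 genes. With 3 libraries a group, each of these is a description without a test. The correlation of log2 CPM over genes between libraries lay between 0.946 and 0.966 at 12 months and between 0.972 and 0.977 at 3 months, where genes are not independent.

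**Figure D4:**
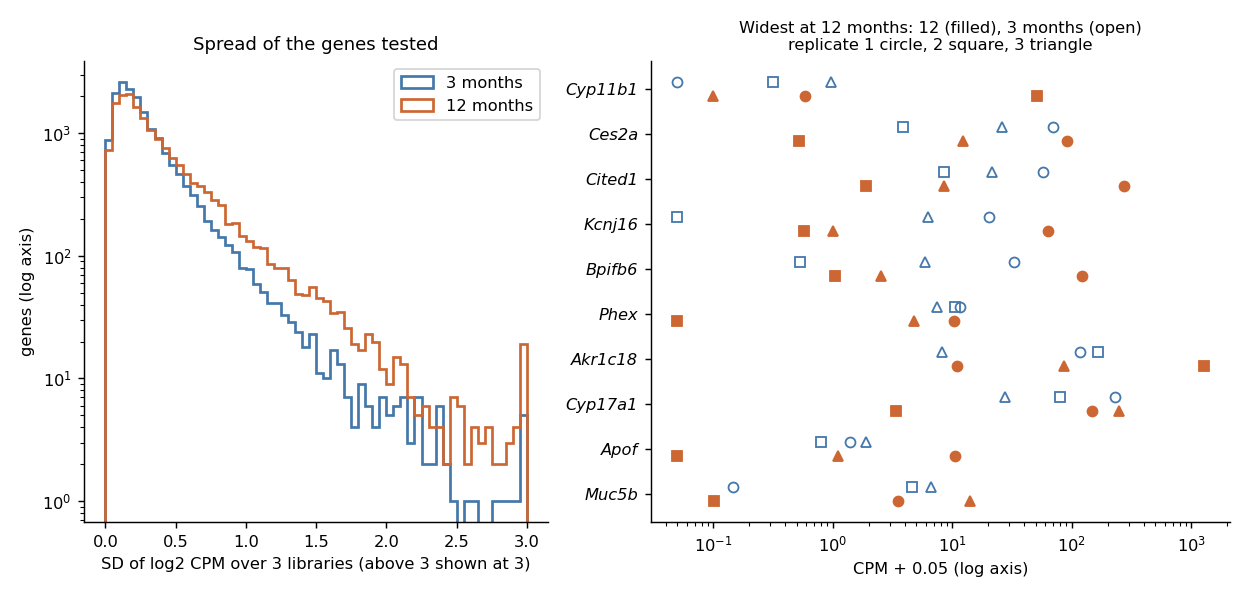
Left, the number of genes (log axis) by the SD of their log2 CPM over the 3 libraries at 3 months (blue) and at 12 months (orange), with values above 3 gathered at 3. Right, CPM + 0.05 (log axis) of the 10 genes with the widest spread at 12 months in each of the 6 libraries, where Cyp11b1 and Akr1c18 are highest and Ces2a, Cited1 and Bpifb6 lowest in 12-month ovary 2 among the ovaries of that age.

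No single ovary carried the spread. Of the 1221 genes with an SD above 1, 12-month ovary 2 was the farthest from the mean of the other 2 for 616, in 456 of them as the lowest, ovary 1 for 449, in 271 of them as the highest, and ovary 3 for 156. The sample weights that limma voom fitted were 0.651, 0.518 and 1.63 for 12-month ovaries 1, 2 and 3. By list, ovary 1 stood above the 12-month mean for cholesterol genes by a median of 1.52 log2 units and for oocyte genes by 0.86, and below it for macrophage genes, at -0.68. Ovary 2 stood below the mean for oocyte genes, at -1.26, and for granulosa genes, at -0.98, and above it for smooth muscle genes by 0.64 and for collagens by 0.55. Ovary 3 stood above the mean for interferon genes by 0.68. All 29 oocyte genes tested had a larger SD at 12 than at 3 months, with medians of 1.15 and 0.23. The mitosis genes went the other way, with a larger SD at 12 months for 14 of 46 and medians of 0.14 and 0.22.

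Several of the genes with the widest spread at 12 months make or break down steroids. Cyp11b1, best known as the 11-beta-hydroxylase of the adrenal cortex, was at 0, 0.268 and 0.923 CPM at 3 months and 0.540, 50.7 and 0.0502 CPM at 12 months, so that 12-month ovary 2 alone held it above 1 CPM, and its fold change turned negative without that ovary. Akr1c18, which inactivates progesterone in corpora lutea at the end of their life, was at 117, 166 and 8.10 CPM at 3 months and 10.9, 1279 and 86.3 CPM at 12 months, and Cyp17a1, which makes androgens in theca cells, at 230.1, 79.4 and 27.4 CPM at 3 months and 149, 3.37 and 249 CPM at 12 months. Ovary 2 was the highest for the former and the lowest for the latter. Hsd17b7, an enzyme of luteal estradiol and of cholesterol synthesis that was named after its values were seen, was at 1825, 83.6 and 468 CPM at 3 months and 4035, 56.1 and 379.6 CPM at 12 months, in the same order of ovaries at both ages. Ces2a was at 69.5, 3.85 and 26.2 CPM at 3 months and 91.00, 0.473 and 12.3 CPM at 12 months, Cited1 at 57.97, 8.46 and 21.5 CPM at 3 months and 273, 1.84 and 8.43 CPM at 12 months, Kcnj16 at 20.1, 0 and 6.25 CPM at 3 months and 62.8, 0.526 and 0.953 CPM at 12 months and Bpifb6 at 33.1, 0.482 and 5.89 CPM at 3 months and 122, 0.999 and 2.51 CPM at 12 months. In these 4 genes ovary 1 was the highest and ovary 2 the lowest at either age. Phex, Apof and Muc5b had 12-month values of 10.3, 0 and 4.77, of 10.4, 0 and 1.05 and of 3.46, 0.0526 and 14.05 CPM. Spp1, or osteopontin, which was also chosen after its values were seen, was at 7.95, 31.8 and 9.74 CPM at 3 months and 11.5, 375 and 12.5 CPM at 12 months.

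Placed among its neighbors in age, the 12-month group differed from 9 months at an adjusted p under 0.05 in 0 genes by edgeR and in 8 by DESeq2 (0.0462%), all higher at 12 months. At an unadjusted p under 0.05, 454 genes (2.62%) were higher and 95 (0.549%) were lower than at 9 months. Between 12 and 18 months, 1 gene (0.00579%) rose in edgeR, the fatty acid-binding protein Fabp4, from 21.9, 22.4 and 26.3 CPM at 12 months to a mean of 90.01 CPM at 18 months, with a log2 fold change of 1.94 (SE 0.13) and an adjusted p of 0.0399, and its call was lost without any 1 of the 6 libraries. At an unadjusted p under 0.05, 552 genes (3.2%) were higher and 501 (2.9%) were lower at 18 months, and DESeq2 called 74 higher (0.429%) and 38 lower (0.22%). These comparisons share the 12-month libraries with the one above and are given side by side. The 12 against 9 months medians were 1.03 for macrophage, 0.87 for giant cell, 0.52 for antigen presentation, -0.57 for oocyte and -0.17 for mitosis genes. The 18 against 12 months medians were 0.26, 1.00, 0.14, -1.02 and -0.61 in the same order. Of the macrophage markers, 11 of 16 were higher at 12 than at 9 months at an unadjusted p under 0.05, and 0 of 46 mitosis genes were lower at that threshold.

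**Figure D5:**
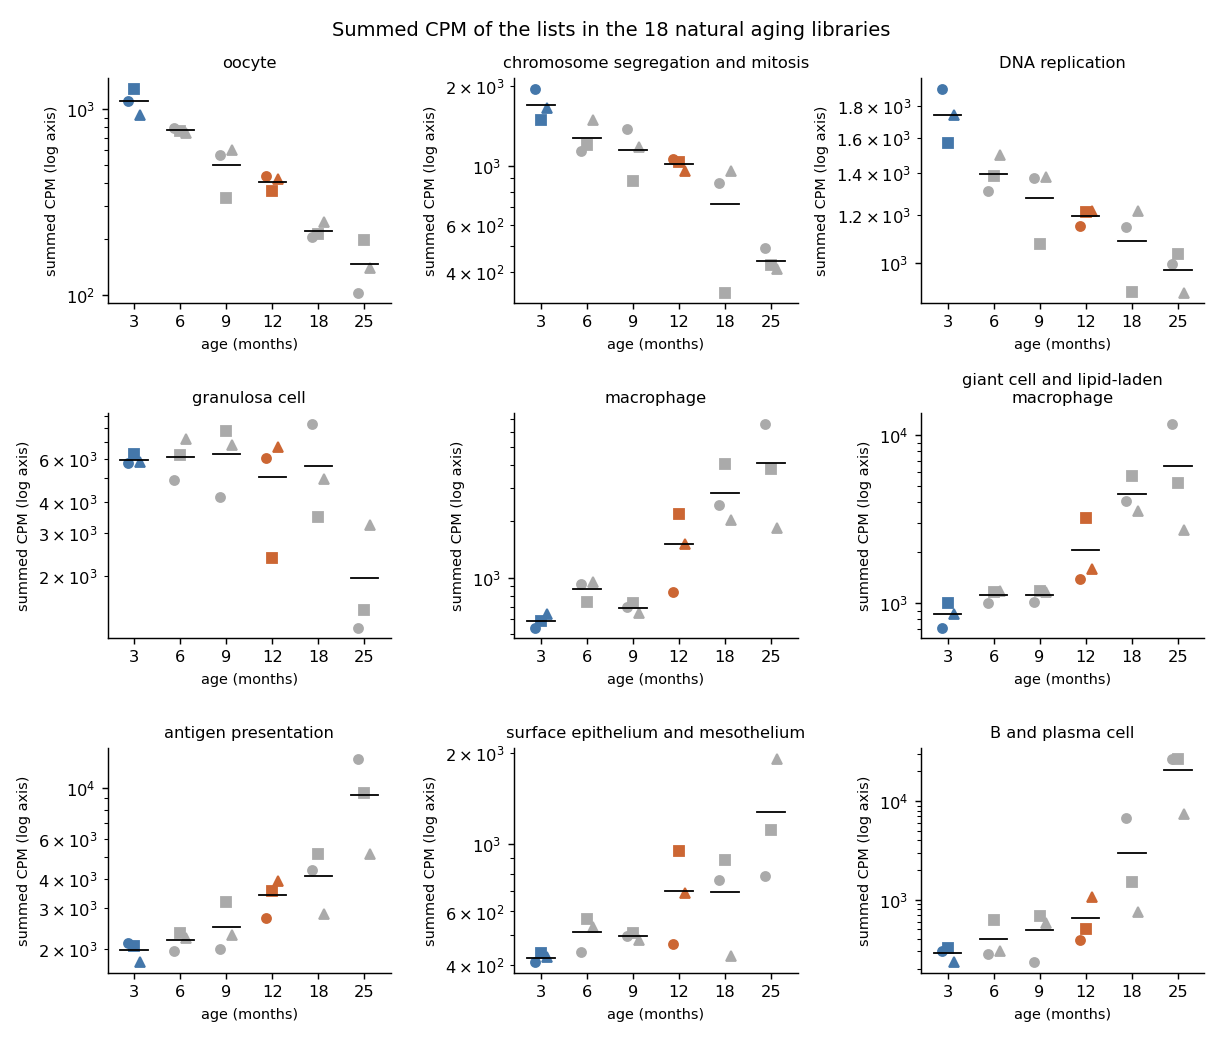
Summed CPM (log axis) of the members of 9 gene lists in each of the 18 natural aging libraries, with 3 months in blue, 12 months in orange, the other ages in gray, and the mean of 3 libraries as a bar. The oocyte and mitosis sums have lower means at each later age, the macrophage and giant cell sums have higher means at 12 than at 9 months, and the granulosa sum of 12-month ovary 2 lies apart from the other 2 ovaries of its age.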

How the data were processed

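The authors deposited read counts per gene, whole numbers without normalization, for 54532 Ensembl identifiers, of which 54495 are in GENCODE M21 and 37 are not. The submitters' processing notes name STAR and mm10, and the counting program is not given in the sources used here. Each pair of ages was fitted on its own 6 libraries in edgeR 4.0.16 (R 4.3.3) with TMM scaling and the default filterByExpr, and p-values of the quasi-likelihood F test were adjusted by Benjamini and Hochberg's method over all genes tested. The SE is the log2 fold change divided by the square root of F. An exact permutation test of 3 against 3 libraries cannot go below 0.1 and was not used. Spread used log2 CPM with a prior count of 2. DESeq2 1.42.0 and limma 3.58.1 served as alternatives. The fits were also run on simulated data, but the outcome is not reported here. Whether the simulated data had the unequal spread of the ages compared is not reported either. No conclusion on the number of calls of any fit is drawn from them. Positions and symbols came from GENCODE M21 (GRCm38) and start regions from RefSeq (GRCm38.p6).

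The comparison, the 39 gene lists (17 of cell markers, 22 of processes, written from general knowledge except the SASP list) and the tests were chosen with earlier results of these data known. Named genes were, in each direction, up to 10 called genes whose libraries did not overlap and whose mean reached 2 CPM, filled by the smallest p, and the 5 with the smallest p. Added to these were up to 4 per list with the smallest p or needed for its account, all SASP factors, and the 10 with the largest SD at 12 months. Immunoglobulin segments, pseudogenes and unnamed models were counted but not named, apart from called genes and those said to be chosen after their values were seen. ABT263 libraries entered only the fit of all 24 libraries. Real-time PCR, serum and follicle counts were not analysed here, and results of some single genes are not reported here.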

Additional observations from a re-analysis of the deposited data

How the results depend on the processing

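The number of calls was the result that depended most on the processing, and the cause was not tested. Against 4 genes higher and 1 lower at 12 than at 3 months, the counts were 434 and 444 with DESeq2, 158 and 154 without a filter on low counts, 0 and 0 with at least 10 counts in every library, 124 and 125 with all 24 libraries in one fit, 16 and 5 with limma voom and sample quality weights, and 0 and 0 with the replicate number as a block. Leaving out 1 library gave 0 to 218 higher and 0 to 135 lower. For 12 against 9 months, 0 genes in either direction became 8 higher with DESeq2 and 1 without the filter. For 18 against 12 months, 1 higher and 0 lower became 74 and 38 with DESeq2, 3 and 2 without the filter, 0 and 2 with all 24 libraries, 1 and 3 with voom weights and 0 and 0 with the block, and leaving out 1 library gave 0 to 0 higher. RLE normalization changed none of these counts. The replicate numbers gave no uniform pairing of the libraries. The deviations of the 12-month and 3-month ovaries of the same number correlated at 0.348, 0.243 and -0.157. Ovaries 1 and 2 correlated best with their own number and ovary 3 did not. Whether the numbers stand for a pairing is not given in the sources used here. The share of genes with a larger SD at 12 months was 60.3% with a prior count of 0.5 and 60.4% over genes with a mean of at least 10 CPM.

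Of 188 named genes, 169 kept the sign of their fold change in each setting that gave a value, and of 39 list medians 28 did. The genes that changed sign did so when 1 library was left out, with log2 fold changes from the lowest to the highest of Cyp11b1 -0.44 to 6.99, Akr1c18 -1.01 to 2.85, Spp1 -0.46 to 3.90, Timp1 -0.30 to 1.76, Tagln -0.11 to 0.76, Des -0.52 to 1.02, Hba-a2 -0.27 to 1.98, Hbb-bt -0.35 to 1.61, Hba-a1 -0.57 to 1.73, Hbb-bs -0.78 to 1.71, Hsd17b7 -1.88 to 2.42, Cyp19a1 -0.48 to 2.45, Cyp17a1 -0.59 to 1.32, Plin1 -0.14 to 0.44, mt-Nd6 -0.30 to 0.021, Ccl2 -1.63 to 1.30, Ccl3 -0.62 to 1.14, Tnfrsf18 -0.045 to 0.63 and Mmp9 -0.37 to 0.44. The block also turned Ccl3 to 0.22 and Cyp17a1 to -0.59, and voom weights turned Mmp9 to -0.038. Depth limits genes under about 0.15 CPM, and 3 ovaries an age limit the rest.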

Other observations

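The families below were chosen after the values were seen and get no test as groups. Several gene families with members known from oocytes had mostly lower values at 12 months. Of the Fbxw12 to Fbxw28 genes, F-box proteins clustered on chromosome 9, 15 of 16 could be tested and 14 were lower at an unadjusted p under 0.05, against 6.86% of all genes, with a median log2 fold change of -2.15. Their summed level was 166, 171 and 131 CPM at 3 months and 75.3, 39.6 and 72.8 CPM at 12 months. The Nlrp genes, some of which encode proteins stored in the egg, had a median of -1.97, with 12 of 16 lower and 0 higher at that threshold. The family also holds inflammasome genes of other cells, and 3 of its tested members had a positive fold change. The 4 tested Obox homeobox genes and the 4 Oog genes were all lower, with medians of -2.34 and -1.85. Members of each family are similar in sequence, so that single counts are uncertain, and 12-month ovary 2 had the lowest sum in each of these 4 families.

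Among immunoglobulin variable segments, counts were found for 103 of 218 over the 3-month libraries and for 160 over the 12-month libraries. Their summed level was 19.2, 5.08 and 5.54 CPM at 3 months and 48.3, 70.2 and 211 CPM at 12 months. The 12-month ovaries 1, 2 and 3 had counts for 90, 78 and 144 segments. Igkv3-2, with 9.78, 9.41 and 10.9 CPM in them, was thus even between ovaries whose other segments differed.

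Around Sp100 on chromosome 1 and on the scaffold that holds Csprs, the 7 genes and pseudogenes followed here all had positive fold changes, with a median of 2.69. Some of the 7 are near-identical copies among which reads could be shared, so their signs are not separate observations. The pseudogenes Gm7609 and Gm7592 were at 0.434, 0.214 and 0.461 CPM at 3 months and 3.08, 3.16 and 4.27 CPM at 12 months and at 0.337, 0.161 and 0.410 CPM at 3 months and 2.21, 2.00 and 1.86 CPM at 12 months, while the full gene Sp100, a component of nuclear bodies, was at 40.8, 36.8 and 34.7 CPM at 3 months and 54.1, 62.6 and 89.6 CPM at 12 months. The mean levels of Csprs at 6, 9, 18 and 25 months were 1.08, 2.21, 3.14 and 6.04 CPM.

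Fcer1a, the alpha chain of the IgE receptor that mast cells carry, was likewise chosen after its values were seen. It had 0 counts in the 3-month libraries and 80 over the 12-month libraries, 0.972, 1.84 and 1.35 CPM, which was at least 8.78-fold higher with a floor of 3 counts per library. Its adjusted p was 0.126 in edgeR and 4.49e-05 in DESeq2.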
